A study of Saccharomyces cerevisiae with 6 samples.

Results

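The cytosolic small-subunit ribosomal protein genes of Saccharomyces cerevisiae were described in 3 strains that differ in where their glycolytic genes sit. The members were all rows of the deposited table whose gene name is RPS followed by a number and, where present, A or B, which gave 52 of 5625 rows. They carried 43 distinct names. For 34 names there was 1 row, and these 34 genes form the summaries. The other 9 names, among them RPS4B, RPS6B, RPS11B, RPS16B, RPS18B, RPS23B, RPS24B and RPS30B, each had 2 rows at different places in the genome, and these 18 rows are given apart. RPS27A, RPS29A, RPS29B and RPS31 are not analysed here.

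In strain IMX605 the glycolytic genes are carried at a single locus on chromosome V, and in IMX606 at a single locus on chromosome IX. In IMX372, the comparison strain, the major glycolytic paralogs remain in their native loci. Polyadenylated RNA came from aerobic bioreactor cultures in medium labelled SMD, 2 biological replicate cultures a strain, so p-values measure the spread between 2 cultures. The libraries are named R12 and R7 for IMX605, R13 and R8 for IMX606, and DSE001 and DSE002 for IMX372. Each strain is 1 line. The labels tie the IMX372 libraries to an earlier deposit, so strain and library set cannot be told apart in any comparison with IMX372. Only the comparison of IMX605 with IMX606 lies within 1 set.

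The small ribosomal subunit binds messenger RNA and monitors the pairing of codon and transfer RNA. Its proteins fold the ribosomal RNA into a head, a body and a platform. In budding yeast most of these proteins are encoded by a pair of genes, the A and B paralogs, kept from an ancient duplication of the genome, and the products of a pair are nearly or wholly identical. Transcription of the whole family is tied to growth through the TORC1 and protein kinase A pathways, and several members also limit their own messenger RNA through splicing or decay.

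Values are FPKM, fragments scaled to the length of the gene model and to the fragments counted on genes in the library. FPKM is a share of the RNA sequenced, so a lower value does not tell fewer transcripts in each cell from fewer cells that carry them, and the total messenger RNA per cell is not known. Between 18754741 and 70510681 reads lay on genes in each library, DSE001 being the deepest and the other 5 lying at or below 21370278. The single-row members had between 6447 and 396449 reads each, so counting error was small for all of them. The length used for FPKM is the whole span of the gene model, introns included. Levels are therefore compared between genes only for the 14 single-row members whose model has the length of the coding sequence in the S288C reference assembly R64. Ratios of A to B are given for other pairs as well, to follow their change between strains. R64 is not the build of the files, whose gene coordinates are those of CEN.PK113-7D models.

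Messenger RNA for the small subunit took a smaller share of the libraries from both single-locus strains. The 34 single-row genes together held 6.94% and 6.95% of the reads on genes in the IMX372 libraries. They held 5.62% and 5.16% in IMX605, and 5.74% and 5.49% in IMX606. The 18 rows of the shared names went the other way, with 2.57% and 2.58% in IMX372 against 2.94% and 2.70% in IMX605 and 3.01% and 2.79% in IMX606. No library of a single-locus strain overlapped the IMX372 libraries in either share.

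Gene by gene, IMX605 differed from IMX372 by an adjusted p below 0.05 (limma on log2(FPKM + 1), Benjamini-Hochberg over the 5459 genes whose FPKM averaged 1 or more) for 22 of the 34 genes. Of these, 21 fell and only RPS28B rose. Over all genes tested 30.0% were called, 15.0% lower and 15.0% higher. The median log2 change was -0.37 over the 34 genes and -0.03 over all genes. In IMX606, 17 genes fell and RPS28B rose, where 12.8% of all genes were called lower and 11.1% higher. The median was -0.30 over the 34 genes and -0.06 over all genes. Both comparisons use the same IMX372 libraries and are not independent. In each comparison the number lower fell when any library of either compared strain was left out, and it fell furthest without DSE002.

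All 4 libraries of the single-locus strains lay below both IMX372 libraries for 26 of the 34 genes, which held for 30.7% of all genes. They lay above both for RPS28B, RPS15 and RPS28A, an order found for 23.3% of all genes. The groups overlapped for RPS20, RPS27B, RPS21B, RPS7B and RPS9A.

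**Figure D1:**
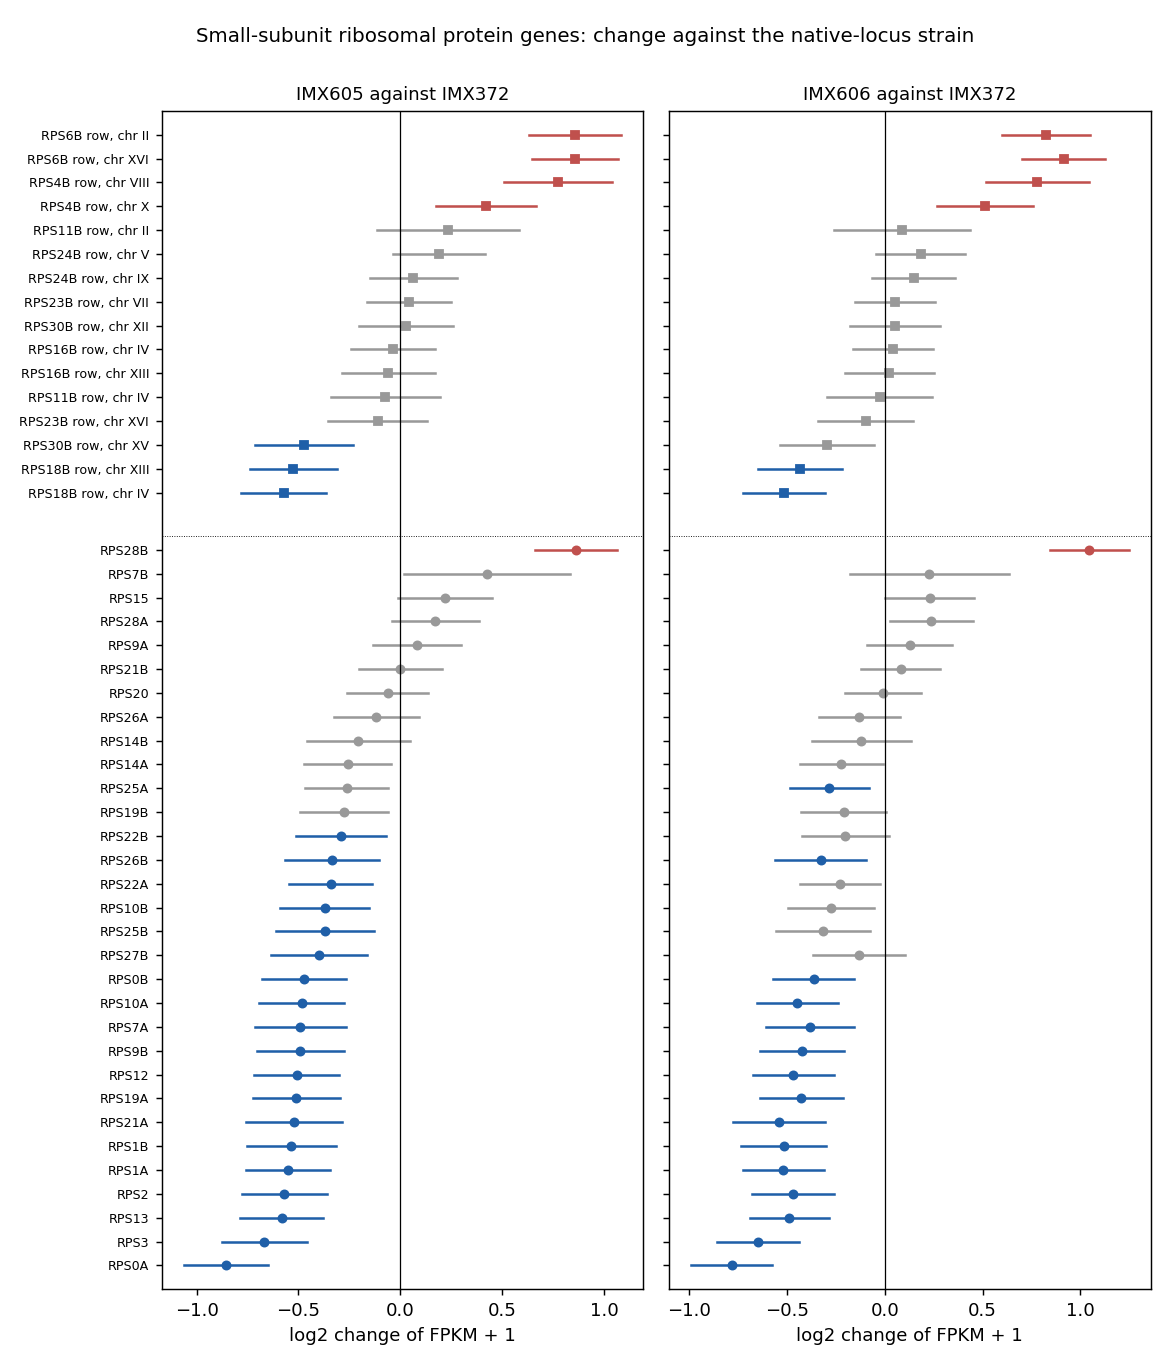
Log2 change of FPKM + 1 (x axis, with 95% intervals) of the small-subunit ribosomal protein rows reported by name in IMX605 (left) and IMX606 (right) against IMX372, with 2 cultures a strain; rows of names that occur at 2 places are squares above the dotted line, red and blue mark rows called higher and lower (adjusted p below 0.05), and grey rows were not called. Most of the single-row genes drawn lie left of 0, while RPS28B lies at 0.86 and 1.05 and the rows of RPS6B lie between 0.82 and 0.91.

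By place in the subunit, the single-row genes were first counted for the head. Of the 22 head names fixed for the list, 15 were single-row members. Of these, 8 fell and 1 rose in IMX605 (median log2 change -0.37), and 7 fell and 1 rose in IMX606 (median -0.28). For comparison, 15.0% of all genes were called lower and 15.0% higher in IMX605, and 12.8% and 11.1% in IMX606. Among the head genes called were RPS28B and RPS3.

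RPS28B encodes a small protein of the head that lies by the path along which messenger RNA leaves the subunit. Its messenger RNA is known for a decay route in which Rps28 protein and the decapping enhancer Edc3 act on the transcript's own 3' end. The gene model lies on chromosome XII at 632344 to 632547. It measured 3005 and 3140 FPKM in IMX372, 5819 and 5356 in IMX605, and 6229 and 6459 in IMX606. All 4 libraries of the single-locus strains lay well above both IMX372 libraries. The log2 change was 0.86 ± 0.09 (SE, n = 2 against 2) in IMX605, 182% of the IMX372 mean, with a limma adjusted p of 4.11e-05. In IMX606 it was 1.05 ± 0.09 (206%, limma adjusted p 9.65e-06). Over all 14 alternative settings and omissions of a library it stayed between 0.80 and 0.92 in IMX605 and between 1.01 and 1.10 in IMX606, and passed in each.

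RPS28A, the paralog, encodes a protein that differs from that of RPS28B by 1 residue. It measured 6195 and 6670 FPKM in IMX372, 7573 and 6926 in IMX605, and 7211 and 7971 in IMX606. Its groups did not overlap, but the log2 changes of 0.17 (limma adjusted p 0.20) and 0.24 (limma adjusted p 0.0982) missed the threshold.

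RPS3 encodes a head protein at the channel through which messenger RNA enters, known also for a role in DNA repair. It measured 4930 and 4963 FPKM in IMX372, 3247 and 2986 in IMX605, and 3303 and 3006 in IMX606. The levels in IMX605 and IMX606 were thus 63.0% and 63.8% of that in IMX372, log2 changes of -0.67 (limma adjusted p 0.00038) and -0.65 (limma adjusted p 0.00052).

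RPS12, a protein of the beak of the head, had the highest FPKM in IMX372 of the 14 genes with models of the coding length, at 11263 and 10909.5. It measured 8201 and 7394 in IMX605 and 8341 and 7698 in IMX606, log2 changes of -0.51 (limma adjusted p 0.00214) and -0.47 (limma adjusted p 0.0044). RPS10A, also of the beak, fell by 0.49 and 0.45 on the log2 scale (limma adjusted p 0.0029 and 0.00565). It measured 2240 and 2209 FPKM in IMX372, 1651 and 1530 in IMX605, and 1681 and 1580 in IMX606. RPS19A, whose protein is needed to mature the precursor of the small ribosomal RNA, measured 1382 and 1290 FPKM in IMX372, 976 and 899.7 in IMX605, and 1008 and 976 in IMX606. Its log2 changes were -0.51 (limma adjusted p 0.00255) and -0.43 (limma adjusted p 0.00859), and the second missed the threshold without DSE001, with an adjusted p of 0.0594.

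Among the head genes that were not called, RPS20, which has no paralog in R64, measured 8484 and 8521 FPKM in IMX372, 8505 and 7787 in IMX605, and 8600 and 8296 in IMX606. These groups overlapped, with log2 changes of -0.06 and -0.01 whose sign changed under some settings. RPS15, whose protein reaches toward the decoding site and is needed to export the subunit from the nucleus, measured 4288 and 4474 FPKM in IMX372, 5399 and 4802 in IMX605, and 5533 and 4759 in IMX606. All 4 values lay above both IMX372 values, but the log2 changes of 0.22 and 0.23 did not pass (limma adjusted p 0.138 and 0.136).

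**Figure D2:**
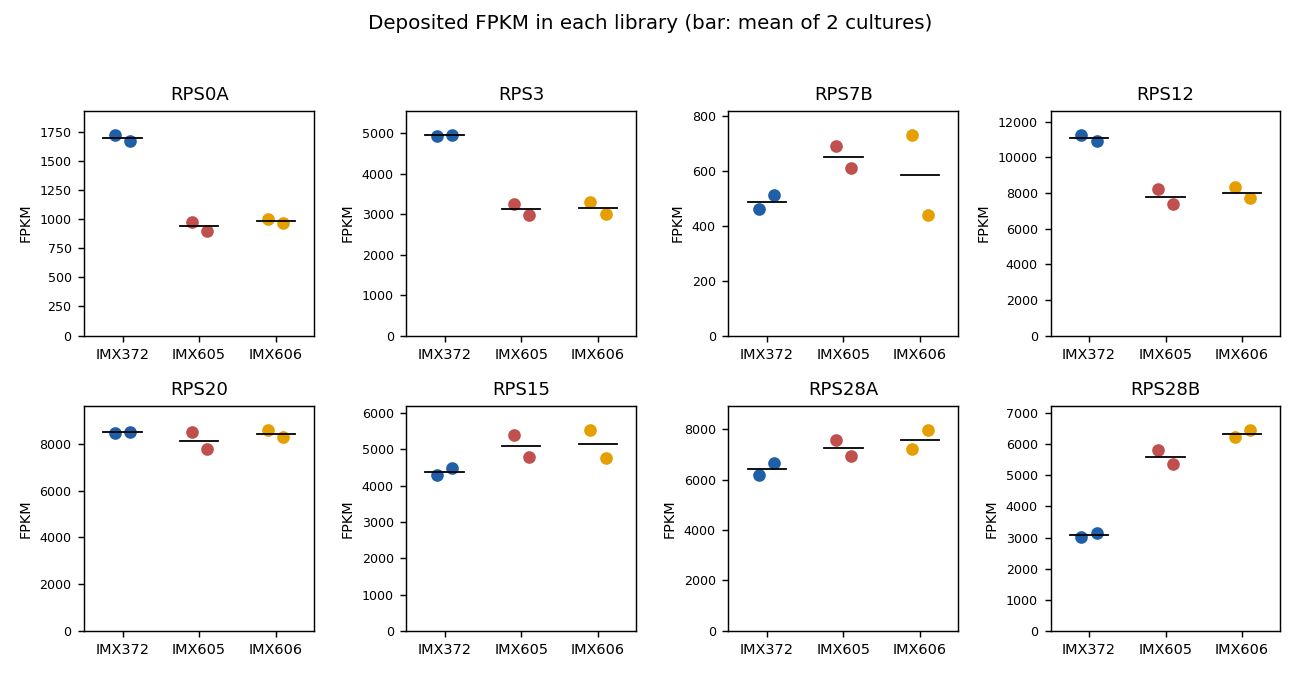
Deposited FPKM (y axes, each starting at 0) in every library for selected small-subunit genes; points are libraries and bars the mean of the 2 cultures of a strain. RPS28B stands higher in the libraries of both single-locus strains, RPS0A, RPS3 and RPS12 stand lower, and RPS7B differs between the 2 IMX606 cultures, at 733 and 441 FPKM.

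In the body and platform list, 19 of 34 names were single-row members. Of these, 13 fell and none rose in IMX605 (median log2 change -0.40), and 10 fell and none rose in IMX606 (median -0.33). The shares of all genes called lower were 15.0% and 12.8%, and those called higher 15.0% and 11.1%. RPS0A had the lowest log2 change among the 34 genes in either comparison.

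RPS0A encodes a protein on the outer face of the body that is needed to mature the small ribosomal RNA. It lies on chromosome VII at 946821 to 948056. It measured 1723 and 1668 FPKM in IMX372, 975 and 899.7 in IMX605, and 997 and 971 in IMX606. The levels in IMX605 and IMX606 were 55.3% and 58.0% of that in IMX372, log2 changes of -0.86 ± 0.09 (SE, limma adjusted p 5.49e-05) and -0.78 ± 0.09 (SE, limma adjusted p 0.000119). RPS0B, its paralog, fell by less, from 1671 and 1610 FPKM in IMX372 to 1224 and 1140.3 in IMX605 and 1259 and 1288 in IMX606. Its log2 changes were -0.47 (limma adjusted p 0.00324) and -0.37 (limma adjusted p 0.0166), and the second missed the threshold with median-of-ratios scaling or without R13, DSE001 or DSE002 (highest adjusted p 0.0761).

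RPS13 encodes a protein that contacts the large subunit. It measured 2593 and 2634 FPKM in IMX372, 1813 and 1680 in IMX605, and 1889 and 1834 in IMX606, with log2 changes of -0.58 (limma adjusted p 0.0008) and -0.49 (limma adjusted p 0.00303). RPS2, whose protein lies at the messenger RNA entry and bears on decoding accuracy, measured 6178 and 5647 FPKM in IMX372, 4173 and 3796 in IMX605, and 4298 and 4221 in IMX606. The log2 changes were -0.57 (limma adjusted p 0.00113) and -0.47 (limma adjusted p 0.00451), and no library of a single-locus strain reached the lower IMX372 value.

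RPS1A and RPS1B encode a protein of the platform near the messenger RNA exit, and both fell. RPS1A measured 3023 and 3296 FPKM in IMX372, 2204 and 2104 in IMX605, and 2263 and 2140.3 in IMX606, with log2 changes of -0.55 (limma adjusted p 0.00134) and -0.52 (limma adjusted p 0.00244). RPS1B measured 3478 and 3623 FPKM in IMX372, 2546 and 2359 in IMX605, and 2631 and 2332 in IMX606, with log2 changes of -0.53 (limma adjusted p 0.00214) and -0.52 (limma adjusted p 0.00319). Both genes had models of the coding length, and RPS1B exceeded RPS1A in every library.

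RPS21A encodes a partner of the Rps0 protein on the body. It measured 1625 and 1567 FPKM in IMX372, 1206 and 1021 in IMX605, and 1141 and 1053 in IMX606, log2 changes of -0.52 (limma adjusted p 0.00385) and -0.54 (limma adjusted p 0.004). The call in IMX605 was lost without R7, with an adjusted p of 0.0517. RPS22B, whose model of 1533 bases is longer than its coding sequence, measured 272 and 282 FPKM in IMX372, 237 and 216 in IMX605, and 243 and 238 in IMX606. Its log2 change of -0.29 in IMX605 was called (limma adjusted p 0.0489) but lost under 7 of 14 alternatives.

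The weaker calls were those of RPS22B, RPS25A, RPS25B and RPS26B. RPS26B encodes one copy of a protein that contacts messenger RNA ahead of the start codon. It measured 1882 and 2001 FPKM in IMX372, 1614 and 1463 in IMX605, and 1657 and 1440 in IMX606. Its adjusted p was 0.0318 in IMX605 and 0.0416 in IMX606 by limma, and each call was lost under 6 of 14 alternatives.

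Genes were also counted by whether the coding part holds an intron in R64. In IMX605, 12 of 19 with an intron and 9 of 15 without one fell. In IMX606 the counts were 9 of 19 and 8 of 15. Over all genes 15.0% and 12.8% were called lower.

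Among the 14 genes with models of the coding length, RPS12 stood first in IMX372 with 11086 ± 250 FPKM (SD, n = 2), ahead of RPS20 with 8503 ± 26.1. RPS28B stood at 3072 ± 95.2 FPKM, rank 13, and its range overlapped that of RPS1A. RPS28A, RPS26A and RPS2 were neighbours in this order, with overlapping ranges between adjacent genes. In IMX605 RPS28B was at rank 6 with 5588 ± 327 FPKM, and in IMX606 at rank 4 with 6344 ± 163. RPS20 and RPS12 exchanged the first and second ranks in both single-locus strains, where their library values overlapped. RPS3 moved from rank 8 to rank 11 in both.

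The single-locus strains were compared with each other next. In IMX605 against IMX606, no single-row member was called by limma, where 0.202% of all genes were, 0.0733% higher and 0.128% lower. At an unadjusted p under 0.05 there was 1 gene, RPS27B, and limma with voom weights on the recovered reads called no member either. The log2 changes ran from -0.27 for RPS27B to 0.20 for RPS7B, with a median of -0.06 against 0.02 over all genes.

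RPS7B was the least even member between cultures. It encodes one of a pair of diverged copies of a body protein. It measured 461 and 511 FPKM in IMX372, 693 and 613 in IMX605, and 733 and 441 in IMX606, where R13 stood above and R8 below both IMX372 libraries. Its log2 changes of 0.42 (limma adjusted p 0.105) and 0.23 (limma adjusted p 0.395) did not pass. Without R8 the IMX606 change was 0.59 and passed, and without R13 it was -0.14.

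The A and B copies were then set against each other within each library, which removes any factor common to the library. For the 13 pairs in which both names had a single row, the log2 ratio of A to B was fitted with limma together with the other 22 such pairs of the table, mostly large-subunit genes, and adjusted over all 35. In IMX605 against IMX372 the ratio changed in 7 of the 13 pairs, with the A copy falling against the B copy in 6 and rising in 1. Over the 35 pairs 34.3% were called, and 5 of the other 22. In IMX606 the ratio changed in 5 of the 13 pairs, 4 toward B and 1 toward A, where 22.9% of the 35 pairs were called. Without R12, or without R7, 4 pairs were called in IMX605.

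**Figure D3:**
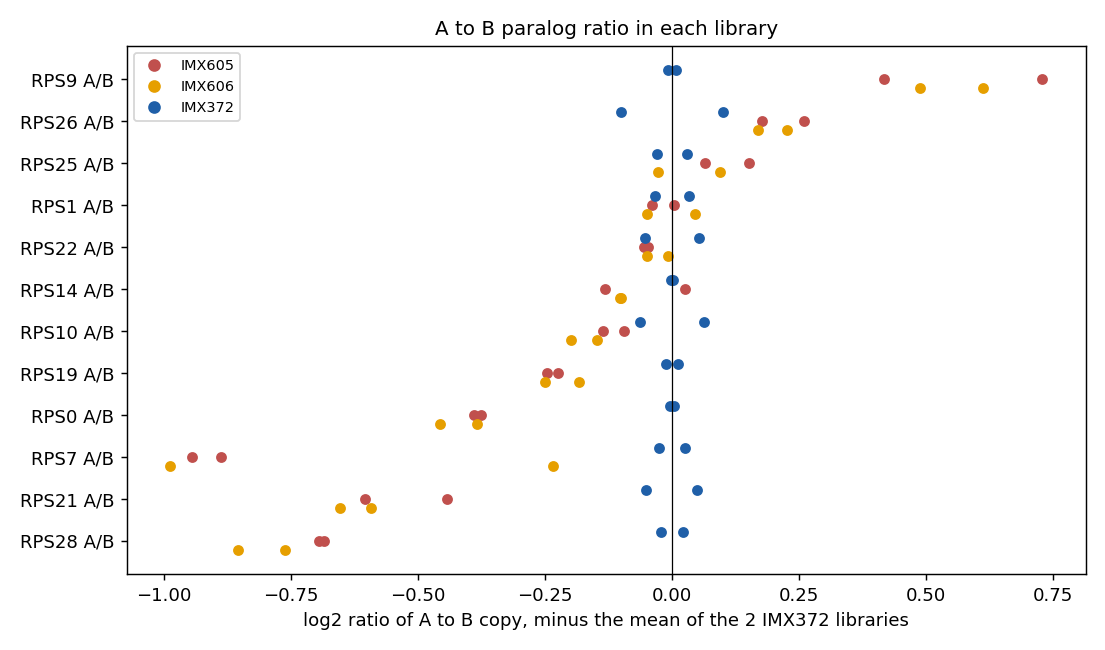
Log2 ratio of A to B copy in each library, minus the mean of the 2 IMX372 libraries (x axis), for the pairs drawn (y axis); each point is a library, coloured by strain. RPS28, RPS21 and RPS0 lie left of 0 in all 4 libraries of the single-locus strains, RPS9 lies right of 0, and RPS7 spreads widely in IMX606.

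The RPS28 pair shifted toward B. The log2 ratio of A to B was 1.04 and 1.09 in the IMX372 libraries, 0.38 and 0.37 in IMX605, and 0.21 and 0.30 in IMX606. RPS28A thus stood 2.09-fold above RPS28B in IMX372, 1.30-fold in IMX605 and 1.20-fold in IMX606. The ratio changed by -0.69 (limma adjusted p 0.000624) and -0.81 (limma adjusted p 0.000275) on the log2 scale. The sum of both copies stood at 135% and 147% of its IMX372 mean, the only one of the 13 pair sums above that mean.

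RPS0 and RPS21, whose proteins touch each other on the body, also shifted toward B. For RPS0 the log2 ratio of A to B was 0.04 and 0.05 in IMX372, -0.33 and -0.34 in IMX605, and -0.34 and -0.41 in IMX606. It changed by -0.38 (limma adjusted p 0.00171) and -0.42 (limma adjusted p 0.00108). For RPS21 the ratio was 0.17 and 0.07 in IMX372, -0.32 and -0.48 in IMX605, and -0.47 and -0.53 in IMX606.

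The RPS21 ratio changed by -0.52 (limma adjusted p 0.00328) and -0.62 (limma adjusted p 0.00167). RPS21B itself stood at 1442 and 1491 FPKM in IMX372, 1508 and 1427 in IMX605, and 1580 and 1523 in IMX606, log2 changes of 0.00 and 0.08 that did not pass. For RPS0 both copies fell, and A fell further. The calls for RPS0, RPS21 and RPS28 held in both comparisons under all 11 alternatives run on the ratios. The changed filters among these kept the same 35 pairs, so they repeated the main fit and could not lose a call.

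RPS9 was the pair that shifted toward A. Its protein lies at the messenger RNA entry and bears on decoding accuracy. The log2 ratio of A to B was -2.62 and -2.64 in IMX372, -2.21 and -1.90 in IMX605, and -2.14 and -2.02 in IMX606. RPS9B stood 6.20-fold above RPS9A in IMX372, 4.16-fold in IMX605 and 4.23-fold in IMX606, over models of 1092 and 1095 bases. Both models are longer than the coding sequence, so these folds are of FPKM over the whole span.

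The RPS9 ratio changed by 0.57 (limma adjusted p 0.0124) and 0.55 (limma adjusted p 0.0148), and the second was lost without R8, with an adjusted p of 0.062. RPS9B fell from 2617 and 2685 FPKM in IMX372 to 1998 and 1779 in IMX605 and 2032 and 1919 in IMX606, with log2 changes of -0.49 and -0.42 (limma adjusted p 0.00323 and 0.00917), the second lost without DSE002 (adjusted p 0.0745). RPS9A measured 424 and 430.3 FPKM in IMX372, 430 and 475 in IMX605, and 459 and 473 in IMX606. R12 of IMX605 lay between the IMX372 values, and both IMX606 values lay above them.

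The calls for RPS19 and RPS7 were less even. RPS19 moved from -0.25 and -0.27 in IMX372 to -0.50 and -0.48 in IMX605 and -0.51 and -0.44 in IMX606, changes of -0.23 and -0.22 (limma adjusted p 0.0106 and 0.0148). The first was lost without R12 or R7 and the second without R13.

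RPS7, the pair with the least alike proteins among the 13, had a log2 ratio of A to B of 1.88 and 1.93 in IMX372, 0.96 and 1.02 in IMX605, and 0.92 and 1.67 in IMX606. The change was -0.92 (limma adjusted p 0.0364) in IMX605 and -0.61 (limma adjusted p 0.112) in IMX606, where R8 lay near IMX372 and R13 near IMX605. RPS7A fell, from 1696 and 1947 FPKM in IMX372 to 1347 and 1240.4 in IMX605 and 1383 and 1404 in IMX606 (log2 changes -0.49 and -0.38, limma adjusted p 0.00436 and 0.0199). The first was lost without DSE002 (adjusted p 0.0564) and the second without R13 or DSE002 (highest adjusted p 0.15). The IMX605 ratio call was lost without R12, R7, DSE001 or DSE002. In IMX606 the ratio changed by -0.23 without R13 and by -0.99 without R8.

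RPS1, RPS10, RPS14, RPS22, RPS25 and RPS26 had no called ratio. For RPS1 the ratio of A to B changed by -0.02 in IMX605 (95% interval -0.15 to 0.11) and by 0.00 in IMX606. In IMX605 against IMX606 none of the 13 ratios was called by limma, none had an unadjusted p under 0.05, and 0.0% of the 35 pairs were called. Without R13, RPS7 was called in that comparison.

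The 9 names with 2 rows are described by place. The genes next to each row, 4 on either side, placed 1 row at the A copy and 1 at the B copy of R64 for every name, so each such name stands for both paralogs. These 9 are the pairs whose A and B proteins are identical in R64. The table gives them 1 name, and reads that match both copies cannot be assigned to either one. The sources used here do not give how the authors counted such reads. Of the 18 rows, 6 rose and 3 fell in IMX605 (median log2 change 0.05), and 6 rose and 2 fell in IMX606 (median 0.07). Among all genes, 15.0% were called higher and 15.0% lower in IMX605, and 11.1% and 12.8% in IMX606.

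The rises included both rows of RPS6B and of RPS4B. Rps6 is the body protein phosphorylated downstream of TORC1. Its row on chromosome II, placed as RPS6B, measured 641 and 649 FPKM in IMX372, 1240.0 and 1102 in IMX605, and 1206 and 1083 in IMX606. Its row on chromosome XVI, placed as RPS6A, measured 798 and 745 FPKM in IMX372, 1452 and 1345 in IMX605, and 1492 and 1418 in IMX606. The log2 changes were 0.86 and 0.82 for the first (limma adjusted p 0.000104 and 0.000157) and 0.86 and 0.91 for the second (limma adjusted p 6.47e-05 and 4.27e-05).

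Rps4 is a body protein as well. The RPS4B row on chromosome VIII measured 922 and 748 FPKM in IMX372, 1480 and 1364 in IMX605, and 1531 and 1330.2 in IMX606, log2 changes of 0.77 and 0.78 (limma adjusted p 0.000724 and 0.000778). The row on chromosome X, placed as RPS4A, rose by 0.42 and 0.51 on the log2 scale (limma adjusted p 0.0162 and 0.0073), and neither call held without DSE002.

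The falls were those of RPS18B, a head protein that contacts the large subunit. Its row on chromosome IV, placed as RPS18A, measured 1896 and 1847 FPKM in IMX372, 1316 and 1202 in IMX605, and 1339 and 1274 in IMX606 (log2 changes -0.57 and -0.52, limma adjusted p 0.00112 and 0.00262). The row on chromosome XIII fell by 0.52 and 0.43 on the log2 scale, the second call lost without DSE002. The RPS30B row on chromosome XV fell by 0.47 in IMX605 (limma adjusted p 0.00797, lost without R7 or DSE002) and did not pass in IMX606 (log2 change -0.30, limma adjusted p 0.0712). The rows of RPS11B, RPS16B, RPS23B and RPS24B did not pass in either comparison.

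The rises among these rows went with repeated sequence. As a measure, each 50-base stretch of a gene's coding sequence in R64 was looked up in the rest of that genome. The share found elsewhere was 72.1% for RPS6, 46.8% for RPS4 and 38.2% for RPS24, alike for both copies. With 100-base stretches it was 53.43%, 13.25% and 17.15%, so the order of RPS4 and RPS24 depended on the length chosen. At 50 bases, 8 member rows in all exceeded 25%. Of these 8 rows, 6 rose and none fell in each comparison (median log2 change 0.56 in IMX605 and 0.60 in IMX606). Of the other 44 rows, 1 rose and 24 fell in IMX605 (median -0.34), and 1 rose and 19 fell in IMX606 (median -0.25). These 44 include 10 rows of shared names, of which 3 fell in IMX605, 2 fell in IMX606 and none rose. The 25% limit was chosen after the values were seen.

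The same order held beyond the small subunit. Among 59 other genes of the table over this limit, 44 rose and 5 fell in IMX605, and 40 rose and 5 fell in IMX606. These 59 include large-subunit genes that are counted again below. Among 4464 other genes up to it, 553 rose and 658 fell in IMX605, and 386 rose and 566 fell in IMX606. The share of 50-base stretches that occur elsewhere thus moved with the change against IMX372. Its part in the rises of RPS4B and RPS6B was not tested. In IMX605 against IMX606, none of the 8 rows was called by limma or had an unadjusted p under 0.05. RPS28B, the single-row gene that rose, shared 0% of its 50-base stretches with any other place. Its coding sequence differs from that of RPS28A at 24 positions. Only exact matches in R64 were counted, and the cause of the RPS28B rise was not tested.

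**Figure D4:**
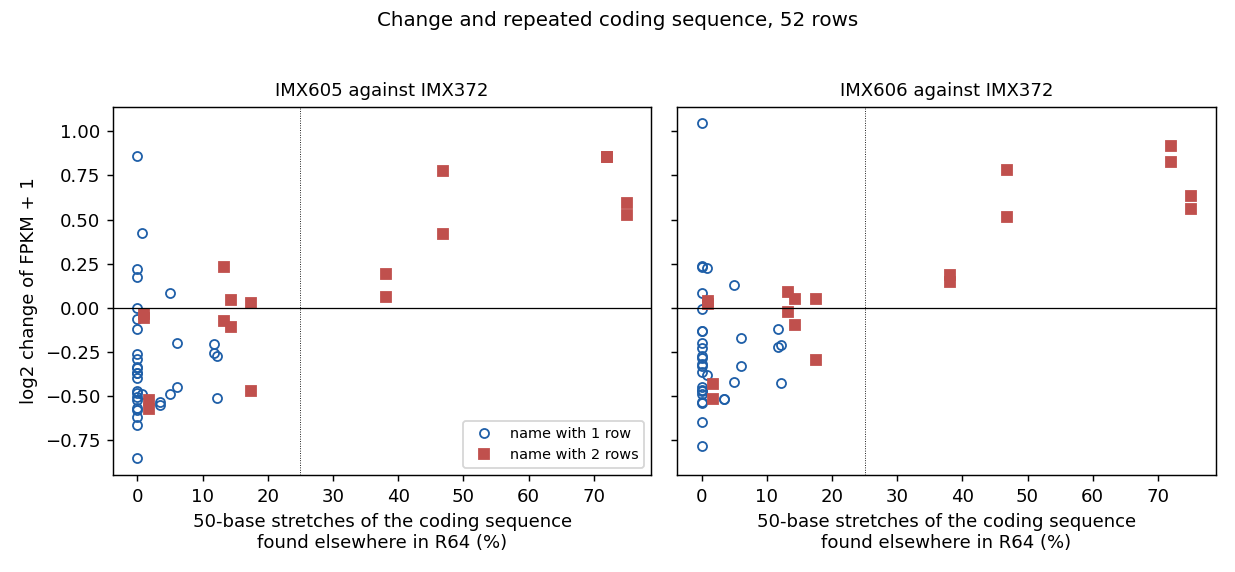
Log2 change of FPKM + 1 (y axis) in IMX605 (left) and IMX606 (right) against IMX372 for the 52 rows, by the percent of 50-base stretches of the coding sequence found elsewhere in R64 (x axis); open points are names with 1 row and filled points rows of names with 2, some of which coincide. The 8 rows right of the dotted line at 25% all lie above 0, and RPS28B lies high at 0%.

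The large-subunit genes were counted in the same way. Of 63 names 51 had a single row, of which 8 rose and 19 fell in IMX605 (median log2 change -0.19), and 8 rose and 18 fell in IMX606 (median -0.16). All genes tested gave 15.0% called higher and 15.0% lower in IMX605, and 11.1% higher and 12.8% lower in IMX606. The 8 large-subunit genes that rose were both copies of RPL4, RPL7, RPL11 and RPL14, and they were also the 8 above the 25% limit on repeated stretches. None of the other 43 rose. The genes with the smallest adjusted p were RPL4A, RPL4B and RPL7A, and RPL10, which joins the large subunit late in its assembly, fell from 8408 and 8066 FPKM in IMX372 to 5595 and 5271 in IMX605.

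Of the 2 other proteins bound to the subunit, 1 was called. ASC1, the yeast RACK1, which binds the head of the subunit, fell from 2734 and 2389 FPKM in IMX372 to 1995 and 1775 in IMX605 and 2023 and 2043 in IMX606 (log2 changes -0.44 and -0.33, limma adjusted p 0.00873 and 0.0398). STM1, a ribosome-bound factor that preserves idle ribosomes, did not pass.

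Of 28 assembly factors 26 were tested. In IMX605 9 fell and none rose (median log2 change -0.24), and in IMX606 6 fell and BUD23, a methyltransferase of the small ribosomal RNA, rose (median -0.20). The shares called in either direction, 34.6% and 26.9%, were near the 30.0% and 23.9% of all genes. By direction, 15.0% of all genes were called lower and 15.0% higher in IMX605, and 12.8% and 11.1% in IMX606. DIM1, which dimethylates the 3' end of the small ribosomal RNA, measured 165 and 174 FPKM in IMX372, 114 and 105 in IMX605, and 113 and 107 in IMX606 (log2 changes -0.63 and -0.62, limma adjusted p 0.00106 and 0.00142). FAP7, which helps Rps14 join the subunit, fell by 0.60 and 0.64 on the log2 scale (limma adjusted p 0.00193 and 0.00162). EMG1, another methyltransferase, fell by 0.48 and 0.45 (limma adjusted p 0.00424 and 0.00769).

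Of 16 regulators, 2 rose and 4 fell in IMX605, and 2 rose and 2 fell in IMX606, shares called of 37.5% and 25%, near the 30.0% and 23.9% of all genes. CRF1, a corepressor of ribosomal protein genes, measured 8.38 and 8.88 FPKM in IMX372, 4.18 and 4.02 in IMX605, and 3.91 and 4.30 in IMX606 (log2 change -0.92 in each, limma adjusted p 0.00153 and 0.00188). SCH9, the kinase through which TORC1 acts on ribosome production, measured 44.8 and 36.6 FPKM in IMX372, 70.4 and 62.6 in IMX605, and 71.6 and 61.0 in IMX606 (log2 changes 0.70 and 0.69, limma adjusted p 0.00258 and 0.00336). TOD6, a repressor of ribosome biogenesis genes, fell by 0.48 and 0.38 on the log2 scale (limma adjusted p 0.00704 and 0.0255). RAP1, FHL1, IFH1 and SFP1, which act at ribosomal protein promoters, were called higher in neither strain, and RAP1 fell in IMX605 (log2 change -0.36, limma adjusted p 0.042).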

How the data were processed

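Hot-phenol RNA went into TruSeq stranded mRNA libraries, per the labels' protocols. Tools listed without a role in the submitters' processing notes are STAR 2.5.4a and, with no version, DESeq2, edgeR, featureCounts and SAMtools. Strand setting and treatment of multiply mapped reads: not stated there. The authors deposited FPKM values per gene model. FPKM times model length gave whole reads for every value (tolerance 0.01). Limma 3.58.1 in R 4.3.3 was fitted to log2(FPKM + 1) of the 5459 genes whose FPKM averaged 1 or more, with 3 strain means and a variance trend; ratios of A to B were fitted over 35 pairs without a trend. The threshold was an adjusted p of 0.05. Values in every library were given for up to 12 members called in both comparisons with IMX372, the 4 largest rises and falls, every called pair, the members with the highest and lowest FPKM as deposited, and some members chosen after their values were seen (RPS0B, RPS7B, RPS15, RPS20, RPS21B, RPS26B and RPS28A). A few members that enter the counts are not reported by name here. Members and lists were chosen with earlier results of these data known. RPP1 was taken out of the large-subunit list because it encodes a subunit of RNase P. Alternatives were other pseudocounts (0.1 and 5), filters, scalings, voom on the recovered reads and the omission of each library. R64 supplied names, gene order, coding lengths and repeated stretches only; no sequence is printed, and promoters were not searched.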

Additional observations from a re-analysis of the deposited data

How the results depend on the processing

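No paired analysis was possible because the columns of the table carry library names and no replicate number from the labels. With pseudocounts, filters, scalings, trend and voom changed one at a time, the count of single-row genes called lower ran from 17 to 24 in IMX605 and from 13 to 20 in IMX606 against IMX372, and RPS28B was called higher in each. Leaving out 1 library at a time gave 13 to 22 lower and 1 to 2 higher in IMX605, and 11 to 16 lower and 1 to 2 higher in IMX606, the second rise being RPS7B. It gave 0 to 1 higher, RPS7B, in IMX605 against IMX606. Called ratios of A to B ran from 4 to 7 in IMX605, from 5 to 6 in IMX606 and from 0 to 1 between the single-locus strains. The change of RPS20 in IMX606 turned to 0.045 with median-of-ratios scaling. Over the omissions it ran from -0.036 to 0.016, and in IMX605 from -0.13 to 0.00042. RPS21B in IMX605 ran from -0.039 to 0.040, and the RPS1 ratio from -0.050 to 0.016 in IMX605 and from -0.048 to 0.045 in IMX606. RPS7B ran from -0.14 to 0.59 in IMX606 against IMX372 and from -0.17 to 0.56 in IMX605 against IMX606, where the RPS7 ratio ran from -0.68 to 0.072. The cause of these turns was not tested. Of 57 row calls against IMX372 37 held under every alternative, as did 7 of 12 ratio calls. For the ratios the changed filters kept all 35 pairs and so repeated the main fit. An omission leaves a strain with 1 library, which is then assumed to vary like the others.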

Other observations

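Between the 2 IMX605 cultures, R12 lay above R7 by a median log2 difference of 0.12 over the 34 single-row members, against -0.04 over all genes. In IMX606 the corresponding median was 0.05, R13 above R8, with 0.73 for RPS7B the highest. RPS11B on chromosome II, a body gene whose groups were not called, also measured less in R8 (802 FPKM) than in R13 (1202 FPKM). It stood at 1172 and 1007 FPKM in IMX605 and 910 and 939 FPKM in IMX372. Some genes outside the members did so too, such as RPL6A (635 FPKM in R8, 1045 in R13), RPP0 (1867 and 2962) and STM1 (1660 and 2395). Others did not, such as RPL30 (2605 FPKM in R8, 2545 in R13) and ASC1 (2043 and 2023). How many genes did so was not counted. Over all genes the median log2 difference, R13 minus R8, was -0.04.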
